A study of Homo sapiens with 7 samples.

Results

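The genes described here encode enzymes that write or erase chemical marks on histones, together with the CHD family of chromatin remodellers. They were taken by symbol from the families KMT, SETD, PRMT, KAT, EZH, KDM, HDAC, SIRT and CHD. Of 19775 genes in the deposited table, 86 had such a name, and 4 of these were left out as 3 antisense transcripts (KDM4A-AS1, HDAC2-AS2 and KMT2E-AS1) and 1 pseudogene (HDAC1P2). The 82 members are 36 writers (8 KMT, 11 SETD, 8 PRMT, 7 KAT and 2 EZH genes), 36 erasers (18 KDM, 11 HDAC and 7 SIRT genes) and 10 CHD remodellers. The names do not fix the substrate, and 3 of the writers and 6 of the erasers are best known for proteins other than histones.

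Poly(A) RNA was sequenced from wild-type H1 cells, an established human embryonic stem cell line. XMD892, a kinase inhibitor that the title of the study links to ERK5, was given at 1 µM for 12 h (1 library), 24 h (2 libraries) or 48 h (2 libraries), and the untreated cells were harvested at 48 h (2 libraries). All groups, the untreated one included, were kept in E8, a defined medium with DMEM/F12, sodium selenite, ascorbic acid, transferrin, insulin, FGF2 and TGFβ. The untreated group is called E8 here, and it has no counterpart harvested at 12 h or 24 h.

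Writers attach acetyl groups to lysines or methyl groups to lysines and arginines of histone tails, and erasers take them off again. Acetylation usually marks active chromatin, while the effect of methylation depends on the residue: trimethylated H3K4 lies at active promoters, H3K27 methylation by Polycomb complex PRC2 covers silent developmental genes, and H3K9 methylation marks heterochromatin. CHD proteins use ATP to move or evict nucleosomes. In embryonic stem cells these enzymes are studied because lineage genes are held silent while carrying both active and repressive marks.

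The promoters of 4 genes are shown because the first 3, KAT7, KDM6A and SETD4, were lower than in E8 at each time of XMD892, and the fourth, KDM3A, was higher at 48 h than at 24 h. Each runs from 250 bases before to 50 after the start in RefSeq on GRCh38.p14, in the direction of transcription, where 74 of the 82 members were matched. The windows are chr17:49788431-49788730 on the plus strand for KAT7, chrX:44872938-44873237 on the plus strand for KDM6A, chr21:36060477-36060776 on the minus strand for SETD4 and chr2:86441121-86441420 on the plus strand for KDM3A. In GENCODE 29 the SETD4 gene runs from 36034541 to 36079389, so its window lies inside the gene and not at its outermost start. Capitals mark matches, on either strand, to the GC box (GGGCGG), the ETS core (CGGAAG), the CCAAT box (CCAAT), the TATA box (TATAAA), the E-box (CACGTG) and the hypoxia core (ACGTG, which also lies within the E-box).
KAT7: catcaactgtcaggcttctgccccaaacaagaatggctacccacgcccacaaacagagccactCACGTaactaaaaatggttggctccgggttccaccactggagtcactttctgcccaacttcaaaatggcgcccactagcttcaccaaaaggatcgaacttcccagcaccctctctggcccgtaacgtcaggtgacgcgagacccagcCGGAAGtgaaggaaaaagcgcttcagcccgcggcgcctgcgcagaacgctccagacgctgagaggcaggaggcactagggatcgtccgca
KDM6A: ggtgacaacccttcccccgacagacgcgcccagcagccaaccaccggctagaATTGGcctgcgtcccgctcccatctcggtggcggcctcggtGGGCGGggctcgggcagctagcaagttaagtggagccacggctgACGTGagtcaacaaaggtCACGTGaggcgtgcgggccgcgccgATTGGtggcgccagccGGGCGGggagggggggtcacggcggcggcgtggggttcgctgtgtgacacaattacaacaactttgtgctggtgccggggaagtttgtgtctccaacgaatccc
SETD4: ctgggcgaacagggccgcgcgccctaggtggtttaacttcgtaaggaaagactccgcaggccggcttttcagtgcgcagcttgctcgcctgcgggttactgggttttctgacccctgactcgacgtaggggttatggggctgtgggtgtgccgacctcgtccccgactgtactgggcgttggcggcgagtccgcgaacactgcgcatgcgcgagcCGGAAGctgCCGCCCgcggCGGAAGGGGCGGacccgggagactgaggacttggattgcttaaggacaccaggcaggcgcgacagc
KDM3A: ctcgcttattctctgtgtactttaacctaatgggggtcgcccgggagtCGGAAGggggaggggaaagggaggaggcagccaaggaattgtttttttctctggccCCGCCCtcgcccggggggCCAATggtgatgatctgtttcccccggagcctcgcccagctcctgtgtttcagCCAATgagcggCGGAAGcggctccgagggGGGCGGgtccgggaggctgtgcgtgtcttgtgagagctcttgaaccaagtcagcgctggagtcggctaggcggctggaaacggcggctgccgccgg
The KAT7 promoter held 1 ETS core and 1 hypoxia core, and no GC box, CCAAT box, TATA box or E-box as spelled here. That of KDM6A held 2 GC boxes, 2 CCAAT boxes, 1 E-box and 3 matches to the hypoxia core, of which 2 are the E-box itself, read on either strand. That of SETD4 held 2 GC boxes and 2 ETS cores, so that no motif searched was found in all 3 of these promoters. The KDM3A promoter held 2 GC boxes, 2 ETS cores and 2 CCAAT boxes. Over the 74 matched members, 51 promoters held a GC box, 27 an ETS core, 25 a CCAAT box, 10 an E-box, 18 a hypoxia core and 0 a TATA box. Of all 35116 promoters of this length, 45.0% held a GC box, 19.5% an ETS core, 34.6% a CCAAT box, 7.3% an E-box, 21.4% a hypoxia core and 11.5% a TATA box. The median number of CpG dinucleotides was 29 in the members' promoters and 14 in all promoters. The set of all promoters was not limited to genes with enough reads to be tested, whereas every member was tested. A match describes the letters of the window only.

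The libraries held between 18528689 and 24148186 reads in the listed genes, and the members took between 0.628% and 0.737% of the normalised reads. Values are the authors' read counts divided by 1 factor per library, called normalised read counts. All 82 members averaged at least 10 normalised reads and were tested with limma among 16351 genes. The threshold for a call was 0.05 after Benjamini-Hochberg adjustment across those 16351 genes, and "rose" and "fell" are used only of called genes. Since the labels do not say whether replicates came from separate cultures, the p-values cover the spread of these samples, which may be technical. The E8 replicates stood apart from each other more than the others did, along GC content, and calls of members that end without one of them are named as such. For genes that are not members, whether a call holds without an E8 library was not examined. All 10 pluripotency markers were detected in every library and summed to between 188185 and 219823. Of these 10, 1 fell at 12 h, 3 at 24 h and 2 at 48 h, with medians of -0.28, -0.11 and -0.17. Beside them 4.89%, 7.56% and 6.45% of all genes were called lower. By limma, edgeR and DESeq2, 0 of the 10 rose at any time, also at an unadjusted p under 0.05. The summed mesendoderm markers (4 of 9 tested) lay between 102 and 176 in XMD892 and at 364 and 382 in E8, and the fibroblast markers (4 of 8 tested) between 6870 and 8591 in XMD892 and at 6899 and 8145 in E8, mostly THY1. Trophoblast and amnion markers (5 of 10 tested) summed to between 505 and 1123 in XMD892 and to 873 and 905 in E8, and neuroectoderm markers (5 of 8 tested) to between 10963 and 21366 in XMD892 and to 10058 and 13703 in E8, mostly NES. Of the 5 tested neuroectoderm markers, 1 rose and 1 fell at 12 h, and 1 rose and 2 fell at 24 h and at 48 h. Their medians were -0.45, -0.22 and -0.1. The part of these differences in the results below was not tested.

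**Figure D1:**
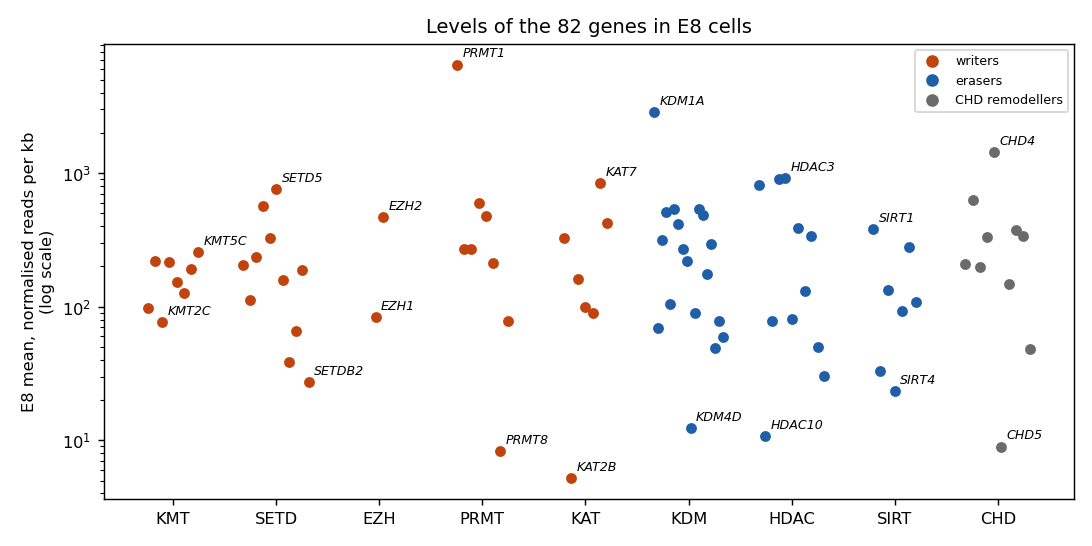
Mean level of each gene in the 2 E8 libraries, as normalised reads per kb of the longest transcript on a log axis, by family, with writers, erasers and CHD remodellers coloured apart and the extremes of each family named. PRMT1 at 6468 and KDM1A at 2839 stand at the top, and KAT2B at 5.2 at the bottom.

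Per kb of their longest transcript, levels in E8 cells ranged from 5.2 normalised reads for KAT2B to 6468 for PRMT1. PRMT1, the main asymmetric arginine methyltransferase, was followed by KDM1A, the flavin-dependent H3K4 demethylase, at 2839 and by CHD4, the ATPase of the NuRD complex, at 1435. The deacetylases HDAC3, HDAC2 and HDAC1, catalytic subunits of the main corepressor complexes, had 920, 900 and 818 per kb. KAT7, at 838, lay among them. Among paralogues, EZH2, the PRC2 methyltransferase of dividing cells, had 466 per kb while EZH1 had 83.6, and KAT2A had 325 per kb while KAT2B had 5.2. The lowest members after KAT2B were PRMT8 at 8.34, CHD5 at 8.97, HDAC10 at 10.8 and KDM4D at 12.4 per kb. HDAC10 shares 55.8% of its exon length with MAPK12, CHD4 46.9% with AC006064.6 and KDM4A 40.2% with AL451062.3, each on the same strand. KAT5 shares 38.6% with RNASEH2C and PRMT5 27.1% with PRMT5-AS1, each on the opposite strand, and the strand setting is not given. Levels of all these genes are uncertain.

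KAT7 showed the largest change of any member at 12, 24 and 48 h. KAT7, also called HBO1, acetylates H3K14 and histone H4 within complexes built on BRPF or JADE scaffolds and takes part in licensing replication origins. Its normalised read counts were 8752 and 7421 in E8, 2237 after 12 h of XMD892, 2564 and 2756 after 24 h, and 2773 and 2292 after 48 h. Every XMD892 library lay far below both E8 libraries. The 24 h and 48 h libraries overlapped, and the 12 h library lay below all of them. The level was 3.6-fold lower at 12 h than in E8 (log2 -1.85, SE 0.18, adjusted p = 9.3e-07), 3.03-fold lower at 24 h (-1.6, SE 0.15, adjusted p = 3e-07) and 3.2-fold lower at 48 h (-1.68, SE 0.15, adjusted p = 1.3e-07). These comparisons share the same E8 libraries. At 12 h there is 1 library, which the fit assumes to vary like the others. In bulk RNA, fewer cells of a type and less RNA per cell cannot be told apart. KAT7 lies on chromosome 17 at 49788555-49835030 (GENCODE 29, GRCh38), on the plus strand, and shares 2.7% of its exon length with AC027801.4.

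**Figure D2:**
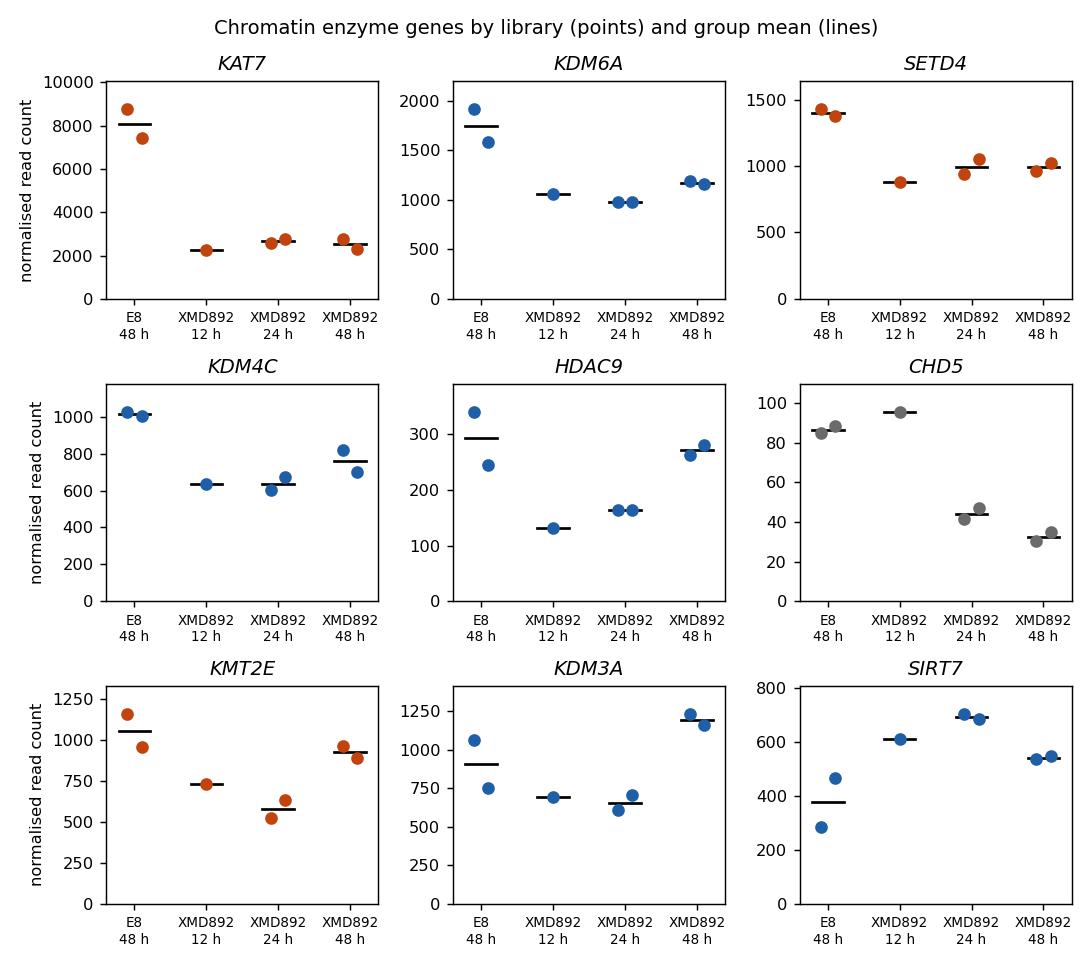
Normalised read counts of 9 chromatin enzyme genes in each library (points) with group means (lines), in E8 and after 12, 24 and 48 h of XMD892, each panel on its own axis that starts at 0. KAT7 falls to between 2237 and 2773 in XMD892, against 7421 and 8752 in E8, while HDAC9 and KMT2E are low at 24 h and lie nearer their E8 values at 48 h.

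The other 6 acetyltransferases did not pass the test at any time. KAT6B, a MYST-family paralogue that acetylates H3K23, had 432 and 643 at 24 h, against 847 and 663 in E8 (log2 -0.51, limma adjusted p = 0.068). KAT5, the catalytic subunit of the TIP60 complex, differed by 0.27 at 48 h (adjusted p = 0.34), and KAT2A, that of the SAGA complex, by 0.05 (adjusted p = 0.86). The 8 genes for subunits of KAT7 complexes given next belong to a list of 36 subunits of acetyltransferase complexes. Of the 36, 4 rose and 2 fell at 48 h, where 5.08% of all genes tested were called higher and 6.45% lower. The reader subunit ING5 rose at 24 h, with 2175 and 2083 against 1245 and 1424 in E8 (log2 0.68, adjusted p = 0.0034), and at 48 h (0.5, adjusted p = 0.028). The scaffold JADE2 fell at 48 h, with 757 and 656 against 1022 and 1200 in E8 (-0.65, adjusted p = 0.0086). JADE1 fell at 48 h (-0.45, adjusted p = 0.042), and JADE3 at 24 h (-0.49, adjusted p = 0.043). BRPF3 had 1983 at 12 h, against 1285 and 1258 in E8 (0.64, adjusted p = 0.037), and was within 0.11 of E8 at 24 and 48 h. BRPF1, ING4 and MEAF6 did not pass at 48 h, with adjusted p-values of 0.11, 0.089 and 0.94.

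At 48 h, 5 of the 82 members were called against E8, 1 higher and 4 lower, while 11.5% of all genes tested were called (5.08% higher, 6.45% lower). At 24 h the members called were 3 higher and 13 lower, with 16.2% of all genes called (8.66% higher, 7.56% lower). At 12 h 0 were called higher and 5 lower, with 7.46% of all genes called (2.56% higher, 4.89% lower). In the 12 h comparison limma gave 4 members higher at an unadjusted p under 0.05, and edgeR and DESeq2 also called 0 higher. The members' share was thus near or below that of all genes at 12 and 48 h, and at 24 h their share called lower, 15.9%, stood beside 7.56% of all genes. That count rested on single libraries: 4 members were lower without 24 h replicate 1, 6 without E8 replicate 1 and 21 without E8 replicate 2. The members higher at 24 h were 1 without either 24 h library and 13 without E8 replicate 2. At 48 h, leaving out E8 replicate 2 gave 13 higher and 8 lower, leaving out E8 replicate 1 gave 3 higher, and leaving out either 48 h library gave 0 higher and 2 lower. At 12 h, leaving out E8 replicate 2 gave 7 higher and 8 lower, leaving out E8 replicate 1 gave 1 higher and 8 lower, and leaving out either 48 h library gave 3 lower. The median log2 change of the members was 0.02 at 48 h, -0.11 at 24 h and 0.0 at 12 h, beside 0.02, 0.01 and 0.02 for all genes tested.

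**Figure D3:**
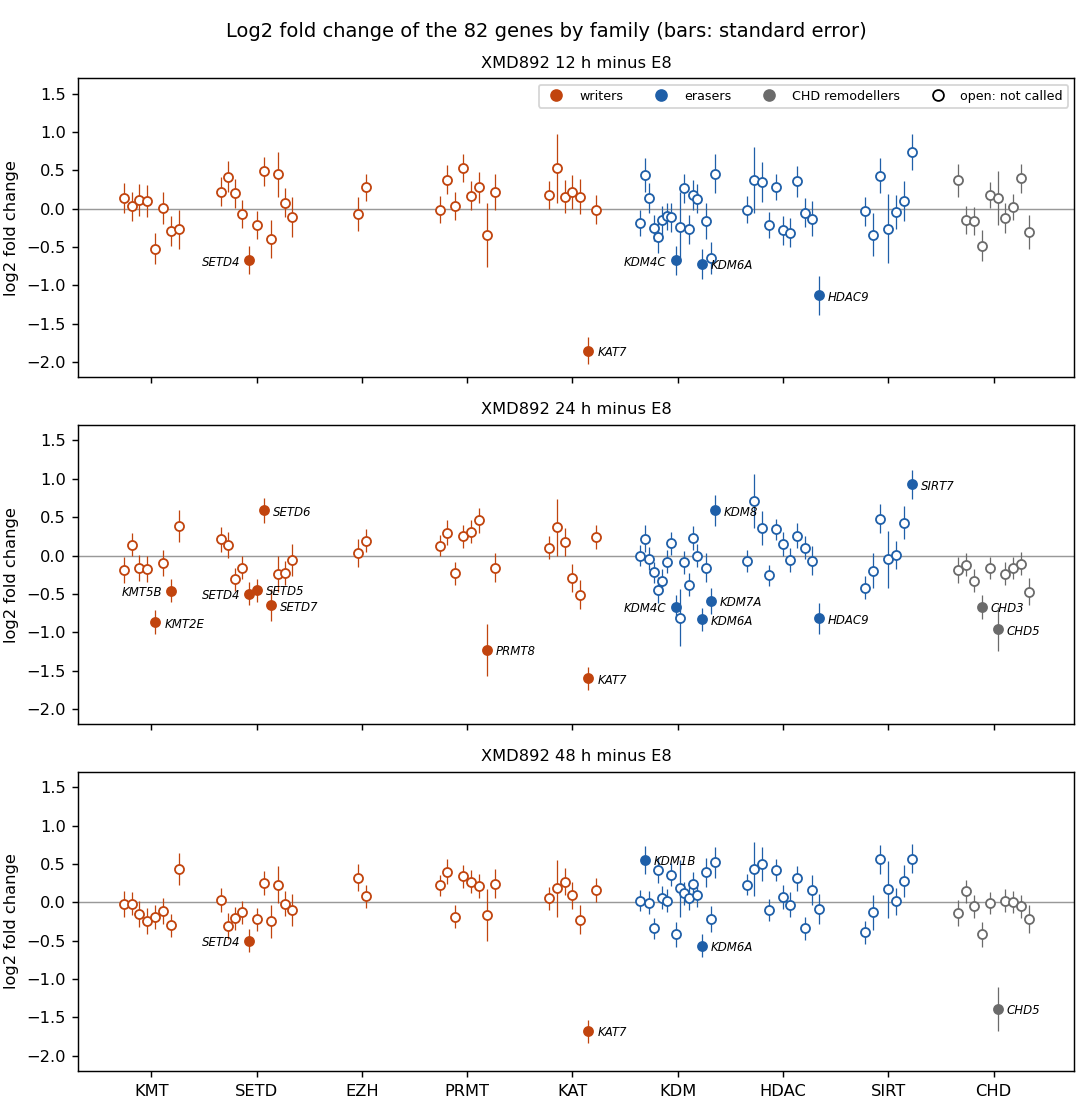
Log2 fold change against E8 of each of the 82 genes at 12, 24 and 48 h of XMD892 (panels from top to bottom), by family, with standard errors as bars, filled points called and open points not called. Most members lie within 0.5 of 0 at each time, and KAT7, between -1.85 and -1.6, stands below every other member in all 3 panels.

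Among the lysine methyltransferases SETD4 fell at each time. SETD4, a SET-domain protein whose substrates are not settled, had 1426 and 1375 in E8, 877 after 12 h of XMD892, 937 and 1051 after 24 h, and 959 and 1020 after 48 h. All 5 XMD892 libraries lay below both E8 libraries. The log2 change was -0.67 at 12 h (SE 0.18, adjusted p = 0.027), -0.5 at 24 h (SE 0.15, adjusted p = 0.028) and -0.5 at 48 h (SE 0.15, adjusted p = 0.033). The 24 h and 48 h calls were lost when any 1 library of 24 h or 48 h was left out, and the 12 h call without either 48 h library. KMT2E, a trithorax-group protein that reads H3K4 methylation and has no clear methyltransferase activity, had 524 and 636 at 24 h, against 1158 and 960 in E8. It fell 1.83-fold at 24 h (log2 -0.87, SE 0.16, adjusted p = 0.0012), and at 48 h, with 964 and 890, it differed by -0.19 (adjusted p = 0.5).

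At 24 h SETD7, an H3K4 monomethyltransferase with many other substrates, fell to 152 and 210, against 301 and 262 in E8 (log2 -0.65, adjusted p = 0.035). KMT5B, which dimethylates H4K20, had 773 and 837 against 1140 and 1072 in E8 (-0.46, adjusted p = 0.042). SETD5, a chromatin regulator mutated in intellectual disability, had 3429 and 4200 against 5380 and 5019 (-0.45, adjusted p = 0.038). These 3 calls were all lost without 24 h replicate 1 or without E8 replicate 1. SETD6, known for methylating the NF-κB subunit RELA, rose to 831 and 784 at 24 h, against 509 and 564 in E8 (0.59, adjusted p = 0.015). It shares 21.4% of its exon length with CNOT1 on the other strand, and its call was lost without either 24 h library.

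The large H3K4 methyltransferases of the COMPASS family did not pass at any time. At 48 h KMT2A differed from E8 by -0.02, KMT2B by -0.02, KMT2C by -0.15, KMT2D by -0.24, SETD1A by 0.03 and SETD1B by -0.31 on the log2 scale. The 95% interval of the KMT2A difference ran from -0.37 to 0.32. SETD2, which trimethylates H3K36, differed by -0.21 and SETDB1, an H3K9 methyltransferase that silences retroelements, by -0.02 at 48 h. EZH2 had 1747 and 1847 at 48 h, against 1795 and 1598 in E8 (0.08, 95% interval -0.22 to 0.39), and EZH1 differed by 0.32 (adjusted p = 0.27).

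Of the arginine methyltransferases, PRMT8, a membrane-anchored enzyme best known from brain, fell at 24 h. It had 17.7 and 23.4 at 24 h, against 47.1 and 51.2 in E8 (log2 -1.23, SE 0.34, adjusted p = 0.017), and 45.4 and 41.7 at 48 h. The call was lost without 24 h replicate 1, without E8 replicate 1 and with DESeq2. PRMT1 had 13738 and 11705 at 48 h, against 10219 and 11591 in E8 (0.22, 95% interval -0.08 to 0.52, adjusted p = 0.35). PRMT5, the main symmetric arginine methyltransferase, differed by 0.34 at 48 h (adjusted p = 0.15).

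Among the lysine demethylases KDM6A fell at each time. KDM6A, also called UTX, removes methyl groups from H3K27 and belongs to the KMT2C and KMT2D complexes. Its counts were 1914 and 1589 in E8, 1061 after 12 h of XMD892, 983 and 976 after 24 h, and 1192 and 1158 after 48 h. Every XMD892 library lay below both E8 libraries, with the lowest values at 24 h. It was 1.64-fold lower at 12 h (log2 -0.72, SE 0.19, adjusted p = 0.02), 1.78-fold lower at 24 h (-0.83, SE 0.15, adjusted p = 0.00097) and 1.48-fold lower at 48 h (-0.57, SE 0.15, adjusted p = 0.017). The 48 h call was lost without either 48 h library. KDM6B, the other H3K27 demethylase, did not pass at any time and had 418 and 443 at 48 h, against 308 and 348 in E8 (0.39, 95% interval 0.01 to 0.78, adjusted p = 0.18).

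Of the 7 H3K9 demethylases, 2 fell at 24 h, KDM4C and KDM7A, where 7.56% of all genes tested were called lower. At that time 6 of the 7 had a log2 change below 0, the exception being KDM4B at 0.16. At 48 h 2 were below 0. The median log2 change of these 7 genes was -0.24 at 12 h, -0.45 at 24 h and 0.06 at 48 h, beside 0.02, 0.01 and 0.02 for all genes tested. KDM4C, which removes H3K9 and H3K36 methylation, had 1026 and 1004 in E8, 638 after 12 h of XMD892, 602 and 672 after 24 h, and 819 and 702 after 48 h. It fell at 12 h (-0.67, SE 0.19, adjusted p = 0.037) and at 24 h (-0.67, SE 0.16, adjusted p = 0.0065), and at 48 h the difference was -0.42 (adjusted p = 0.089). The 24 h call was lost without 24 h replicate 1, and the 12 h call when any 1 library of 24 h or 48 h was left out. KDM7A, which removes mono- and dimethyl marks from H3K9 and H3K27, fell at 24 h with 435 and 521, against 791 and 648 in E8 (-0.59, adjusted p = 0.023), a call lost without 24 h replicate 1 or E8 replicate 1. The remaining H3K9 erasers, KDM3A, KDM3B, KDM4A, KDM4B and KDM4D, did not pass against E8 at any time.

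Among the demethylases 2 rose, KDM1B at 48 h and KDM8 at 24 h. KDM1B, the flavin-dependent relative of KDM1A that sets maternal imprints in mouse oocytes, had 393 and 385 at 48 h, against 273 and 256 in E8 (log2 0.55, SE 0.18, adjusted p = 0.047). The call was lost in 9 of 21 alternatives, among them leaving out any 1 library of 24 h or 48 h. KDM8, a JmjC protein better known as a hydroxylase, had 212 and 231 at 24 h, against 138 and 156 in E8 (0.59, SE 0.2, adjusted p = 0.048), and its call was lost in 13 of 21, among them leaving out any 1 library but E8 replicate 2. It shares 14.5% of its exon length with AC109449.1. KDM1A had 9054 and 8585 at 48 h, against 8693 and 8674 in E8, a difference of 0.02 with an interval of -0.26 to 0.30. KDM5B and KDM5C, which remove H3K4 trimethylation, differed by 0.05 and 0.24 at 48 h and did not pass at any time.

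HDAC9, a class IIa deacetylase that acts mainly as a corepressor of MEF2 factors, was low at the earlier times. Its counts were 340 and 245 in E8, 131 after 12 h of XMD892, 163 and 164 after 24 h, and 262 and 281 after 48 h. The 12 h and 24 h libraries lay below both E8 libraries, while those of 48 h lay between them. HDAC9 was 2.2-fold lower at 12 h (log2 -1.13, SE 0.25, adjusted p = 0.0061) and 1.76-fold lower at 24 h (-0.82, SE 0.2, adjusted p = 0.0089). The 24 h call was lost without E8 replicate 1. At 48 h the difference was -0.09 (adjusted p = 0.82).

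No class I deacetylase passed at any time with limma. HDAC2 had 8108 and 8399 at 48 h, against 9421 and 8359 in E8 (-0.1, 95% interval -0.39 to 0.18), and HDAC1 had 2337 and 2269, against 1910 and 2030 (0.23, interval -0.07 to 0.52). HDAC3, the subunit of the NCOR complexes, had 2565 and 2271 at 48 h, against 1794 and 1809 (0.42, adjusted p = 0.058), and was called in 5 of 21 alternatives, DESeq2 among them. Over the 11 HDAC genes the median log2 change was 0.16 at 48 h, 0.1 at 24 h and -0.05 at 12 h, beside 0.02, 0.01 and 0.02 for all genes tested.

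SIRT7, a nucleolar NAD-dependent deacetylase of H3K18, rose at 24 h. Its counts were 284 and 467 in E8, 609 after 12 h of XMD892, 702 and 684 after 24 h, and 535 and 548 after 48 h. All XMD892 libraries lay above both E8 libraries, which differed from each other by 0.72 on the log2 scale, the larger value in replicate 2. SIRT7 was 1.9-fold higher at 24 h (log2 0.93, SE 0.19, adjusted p = 0.0028), and the difference was 0.74 at 12 h (adjusted p = 0.06) and 0.57 at 48 h (adjusted p = 0.059). At 24 h it was 0.57 without E8 replicate 1 and 1.28 without E8 replicate 2, called in both. SIRT1, which deacetylates p53 and histones, differed by -0.42 at 24 h (adjusted p = 0.067) and -0.39 at 48 h (adjusted p = 0.1), and SIRT6, an H3K9 deacetylase, by 0.43 and 0.28 (adjusted p = 0.17 and 0.42).

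In the CHD family CHD5 fell at 24 and 48 h. CHD5, a NuRD-type remodeller best known as a tumour suppressor of neural tissue, had 84.7 and 88.4 in E8, 95.5 after 12 h of XMD892, 41.7 and 46.8 after 24 h, and 30.2 and 34.7 after 48 h. The 12 h library lay above both E8 libraries, and those of 24 h and 48 h below. CHD5 was 1.94-fold lower at 24 h (log2 -0.96, SE 0.29, adjusted p = 0.026) and 2.62-fold lower at 48 h (-1.39, SE 0.29, adjusted p = 0.0027). The 24 h call was lost when any 1 library of E8 or 24 h was left out, and the 48 h call was kept in each of 21 alternatives. CHD3, another NuRD ATPase, fell at 24 h with 1420 and 1619, against 2178 and 2690 in E8 (-0.67, SE 0.16, adjusted p = 0.0066), a call lost without 24 h replicate 1. At 24 h 0 of the 10 CHD genes had a log2 change above 0, with a median of -0.21, beside 8312 of all 16351 genes and a median of 0.01. The 23 other genes of remodelling complexes described below had a median of -0.23 at 24 h. CHD4 differed by -0.01 at 48 h (95% interval -0.31 to 0.28), and CHD1, CHD7 and CHD8, remodellers of elongating genes, enhancers and promoters, by -0.14, 0.0 and -0.05.

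Between 24 h and 48 h of XMD892 2 members were called, both higher at 48 h, and 0 lower, while 1.2% of all genes tested were called (0.349% higher, 0.856% lower). KDM3A, an oxygen-sensitive H3K9 demethylase, had 1228 and 1157 at 48 h, against 606 and 702 at 24 h, and rose 1.83-fold (log2 0.87, SE 0.17, adjusted p = 0.011). In E8 it had 1061 and 753, between the 2 times. KMT2E had 964 and 890 at 48 h, against 524 and 636 at 24 h, and rose 1.6-fold (0.68, SE 0.16, adjusted p = 0.042). Both calls were lost without 24 h replicate 1 and without either 48 h library. By limma 3 members were lower at 48 h than at 24 h at an unadjusted p under 0.05, and edgeR and DESeq2 called 0 lower. Of all 82 members 59 had a log2 difference above 0 and the median was 0.09, beside 0.0 for all genes, and of the 7 H3K9 erasers 7 were above 0, with a median of 0.37. Between 12 h and 24 h limma, edgeR and DESeq2 called 0 members in either direction, with 2 higher and 8 lower at an unadjusted p under 0.05 in limma and 0.391% of all genes called (0.263% higher, 0.128% lower).

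Writers and erasers were compared by the mean log2 level of each class, centred per gene over the 7 libraries. The writers' mean minus that of the erasers was 0.07 and 0.037 in E8, 0.138 after 12 h of XMD892, -0.061 and 0.005 after 24 h, and -0.1 and -0.089 after 48 h. Both 48 h libraries lay below both E8 libraries, as did those of 24 h, while the 12 h library lay above them. The difference of the mean changes was -0.148 at 48 h, -0.082 at 24 h and 0.084 at 12 h, and the pooled SD of this quantity between replicates was 0.031. Without KAT7, left out after its values were seen, it was -0.101 at 48 h, -0.039 at 24 h and 0.138 at 12 h. No test was made on these scores, since the genes of a class are not replicates and the classes were chosen with results known.

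By counts, of 36 writers 0 were called higher and 2 lower at 48 h, and of 36 erasers 1 higher and 1 lower, while 11.5% of all genes were called. At 24 h the writers had 1 higher and 7 lower and the erasers 2 higher and 4 lower, beside 16.2% of all genes. The lower calls of the writers KMT5B, PRMT8, SETD4, SETD5 and SETD7 were lost without 24 h replicate 1. So were those of the erasers KDM4C and KDM7A, and the higher calls of SETD6 and KDM8. At 12 h the writers had 0 higher and 2 lower and the erasers 0 higher and 3 lower, beside 7.46% of all genes. Where limma called 0 higher, edgeR and DESeq2 did too, and the number at an unadjusted p under 0.05 in limma was 3 for writers at 48 h, 2 for writers at 12 h and 1 for erasers at 12 h. The median log2 change at 48 h was -0.02 for writers and 0.11 for erasers, beside 0.02 for all genes tested, and 17 of 36 writers and 25 of 36 erasers were above 0. At 24 h the medians were -0.13 and -0.05 and at 12 h 0.11 and -0.1. For H3K4, 1 of 7 writers and 6 of 6 erasers had a log2 change above 0 at 48 h, with medians of -0.15 and 0.11, and 1 of these 13 genes, KDM1B, was called. At 24 h 3 of 7 writers and 3 of 6 erasers were above 0 (0 of 7 and 5 of 6 with the GC trend removed), and at 12 h 6 of 7 and 4 of 6, with medians of 0.11 and 0.15. For acetylation, the medians at 48 h were 0.09 for the 7 writers and 0.16 for the 18 erasers.

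**Figure D4:**
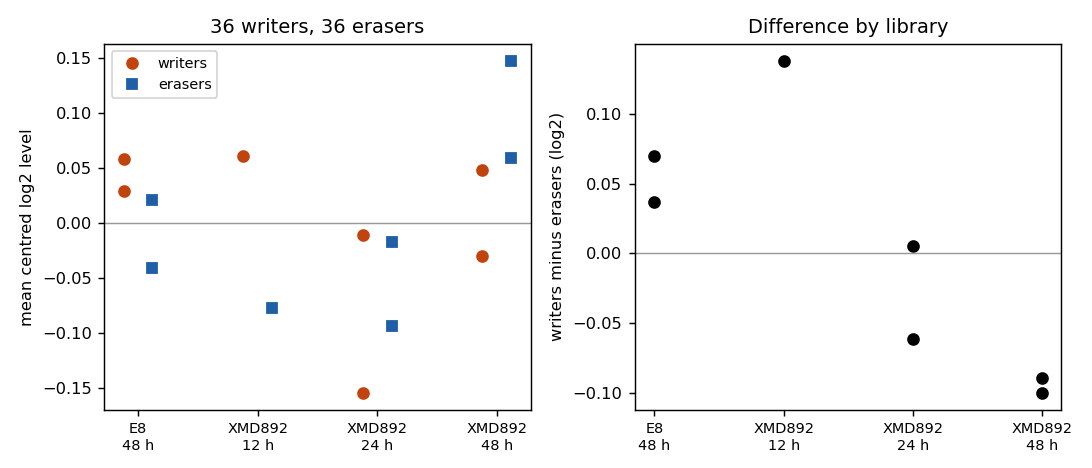
Mean centred log2 level of the 36 writers and 36 erasers in each library (left) and their difference (right), in E8 and after 12, 24 and 48 h of XMD892. The writers minus erasers difference is -0.1 and -0.089 at 48 h, against 0.07 and 0.037 in E8.

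Within E8, the gap between the replicates went with GC content. Across the 82 members, which are not independent replicates, the Spearman correlation of the log2 difference of replicate 2 minus replicate 1 with the GC content of the longest transcript was 0.77, and it was 0.64 across 16026 genes. Over the members, that difference had an SD of 0.306 in E8 against 0.211 after 24 h and 0.2 after 48 h. KMT5C and SIRT6 differed most between the E8 replicates, both by 0.82. The members' log2 change against E8 had Spearman correlations with GC content of 0.29 at 48 h, 0.49 at 24 h and 0.17 at 12 h. Across all genes these were 0.19, 0.31 and 0.05. For 48 h against 24 h the correlation was -0.43 in the members and -0.21 across all genes. The members' log2 change against E8 also moved with transcript length, with Spearman correlations of -0.56 at 48 h, -0.55 at 24 h and -0.29 at 12 h, beside -0.17, -0.2 and -0.06 across all genes. Between the 24 h replicates the members' difference had a correlation of 0.49 with length. The median longest transcript was 4.53 kb for writers, 5.29 kb for erasers and 8.92 kb for CHD genes, against 3.38 kb for all genes tested. Median GC content was 47.7% for writers, 51.1% for erasers and 47.4% for CHD genes, against 48.6% across the 16026 genes. After the GC trend of every library was taken out, 8 members were higher and 9 lower at 48 h. The part of length in the changes was not tested.

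**Figure D5:**
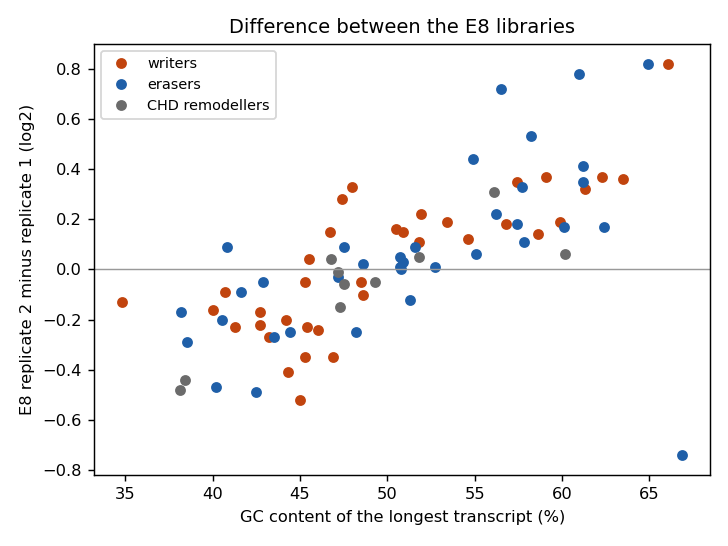
Log2 difference between the 2 E8 libraries (replicate 2 minus replicate 1) of each of the 82 genes against the GC content of its longest transcript in percent, coloured by class. Genes of high GC content are mostly above 0 and those of low GC content below it, and HDAC10, at 36.7 normalised reads in replicate 1 and 21.5 in replicate 2, is the low point at the right.

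Other chromatin genes, from lists chosen with earlier results of these data known, were set beside the members. The counts at 48 h stand beside 5.08% of all genes called higher and 6.45% lower. Of 17 other lysine methyltransferases, 2 rose and 1 fell at 48 h: SMYD2 had 326 and 326 against 156 and 199 in E8 (log2 0.88, adjusted p = 0.0036), SMYD3 rose by 0.57 (adjusted p = 0.036), and MECOM, a transcription factor with a PR domain, had 79.9 and 51.6 against 302 and 216 (-1.98, adjusted p = 3.9e-05). Of 11 other demethylase and JmjC genes 1 rose and 3 fell, with the DNA demethylase TET1 at 1840 and 1806 against 3334 and 2303 (-0.6, adjusted p = 0.019), JMJD1C at -0.56 (adjusted p = 0.03) and RIOX2 at 0.57 (adjusted p = 0.035). HR, a gene with few reads, fell to 2.16 and 3.97 against 16.6 and 18.2 in E8 (-2.21, adjusted p = 0.031), with 19.8 and 5.61 at 24 h. Of the 11 other arginine methyltransferases and acetyltransferases limma, edgeR and DESeq2 called 0 at any time, with 1 lower at 48 h, 1 higher and 3 lower at 24 h and 1 higher at 12 h at an unadjusted p under 0.05 in limma.

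Of 11 tested PRC2 subunits, EPOP, an accessory subunit, rose at 48 h with 895 and 1005 against 411 and 637 in E8 (0.89, adjusted p = 0.0025), and JARID2, which helps to recruit PRC2, fell with 7568 and 6033 against 10246 and 10252 (-0.6, adjusted p = 0.0089). The core subunits SUZ12 and EED differed by -0.04 and 0.12 and did not pass. Among PRC1 subunits, genes that rose at 48 h were RING1 by 0.82 (adjusted p = 0.0066), PHC2 by 0.95 (adjusted p = 0.00042) and BCORL1 by 0.95 (adjusted p = 0.0036). Of 12 COMPASS subunits PAGR1 rose (0.67, adjusted p = 0.039), and of 26 subunits of deacetylase complexes limma and edgeR called 0 at 48 h and DESeq2 1 lower, with 1 higher and 4 lower at an unadjusted p under 0.05 in limma, while at 24 h, where 8.66% of all genes were called higher and 7.56% lower, 3 rose, among them MBD3 (0.77, adjusted p = 0.0051), and 1 fell, MTA3 (-0.53, adjusted p = 0.013).

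The 4 of 36 subunits of acetyltransferase complexes that rose at 48 h, beside 5.08% of all genes, included TADA2A (0.7, adjusted p = 0.0073) and SGF29 (0.7, adjusted p = 0.02). The 2 that fell, beside 6.45% of all genes, were JADE1 and JADE2. Of 23 other genes of remodelling complexes, mostly ATPases, 3 fell at 48 h. SMARCA2, an ATPase of the BAF complex, had 120 and 101 against 272 and 222 in E8 (-1.15, adjusted p = 0.0055), HELLS fell by 0.72 (adjusted p = 0.0044) and BPTF by 0.59 (adjusted p = 0.016). At 24 h SMARCA2 had 91.6 and 52.4 and was lower by 1.81 on the log2 scale.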

How the data were processed

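Per the submitters' processing notes, Trimmomatic 0.36, STAR, featureCounts 1.5.3, DESeq2 1.26.0 and hg38 were used; their order, the gene annotation, a strand setting or a filter are not given in the sources used here. The deposited table holds a signal for each gene symbol: the authors' read counts over a factor common to the library. Divided by its library's smallest step, 100.0% of values in each library came within 0.1 of a whole read, so reads could be recovered. A further 2 columns of the table match no sample and were not used. Total reads cover the listed genes only, which had 6 or more reads over the 7 libraries.

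Genes with a mean of 10 or more were fitted with limma 3.58.1 (R 4.3.3) on log2(value + 1), 1 mean per group over all 7 libraries with a trended prior variance. Fold changes are on that scale and understate changes of low genes. p-values were Benjamini-Hochberg adjusted over the 16351 genes tested. The fit was tested on simulated data. Symbols, coordinates, GC content and longest transcripts came from GENCODE 29 on GRCh38, which held 97.7% of the symbols. Alternatives were pseudocounts of 0.5 and 5, other filters and scalings, edgeR 4.0.16 and DESeq2 1.42.0 on recovered reads, robust moderation, only the groups compared, the replicate block, removal of the GC trend (loess, span 0.3) and leaving out each replicate. Each count of members called can change with the choice of library, so for the members as a whole the count without it is given where it did.

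Members and lists were chosen with earlier results of these data known. Genes named are the members called in a comparison, the highest member of each family, a set of well known members and up to 4 called genes of each other list. Per-library values of Y-linked KDM5D are not printed.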

Additional observations from a re-analysis of the deposited data

Results flagged for a closer look

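The difference between 24 h and 48 h of XMD892, which is also the difference between their effects against the shared E8 libraries, passed the test for 2 members. KDM3A was 0.87 higher on the log2 scale at 48 h than at 24 h (limma adjusted p = 0.011, between 9.7e-06 and 0.19 over the alternatives), higher in 2 of 2 libraries of 48 h. KMT2E was 0.68 higher (adjusted p = 0.042, between 0.00079 and 0.54 over the alternatives), also in 2 of 2 libraries. Against E8, KDM3A differed by 0.42 at 48 h and KMT2E by -0.19.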

How the results depend on the processing

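Of 28 called values of members, 8 stayed called under every alternative run (at most 21 each): KAT7 at 12, 24 and 48 h, CHD5 at 48 h, KDM6A, KMT2E and SIRT7 at 24 h and HDAC9 at 12 h. The other 20 were lost under at least 1, and 0 were reversed. Of 41 uncalled named values at 48 h, 12 were called under at least 1. The cause of these losses was not tested. The median SE of a member was 0.16 at 24 and 48 h and 0.19 at 12 h, which limits the size of change that could be called.

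Leaving out 1 replicate moved the counts of members higher and lower to between 0 and 13 and between 2 and 8 at 48 h against E8, 1 and 13 and 4 and 21 at 24 h, and 0 and 7 and 3 and 8 at 12 h. It moved them to between 0 and 6 and 0 and 2 at 48 h against 24 h, and 0 and 1 and 0 and 4 at 24 h against 12 h. The lone library of a group is then assumed to vary like the others. With the GC trend removed, 8 members were higher and 9 lower at 48 h against E8, 8 higher at 24 h, 4 higher and 8 lower at 12 h, and 4 higher at 48 h against 24 h. With the GC trend removed and without E8 replicate 1, 3 were higher at 48 h, 6 lower at 24 h, 2 higher at 12 h, and 4 higher and 1 lower at 48 h against 24 h. Without E8 replicate 2 instead, 8 were higher and 9 lower at 48 h, 4 higher and 10 lower at 12 h, and 5 higher and 1 lower at 48 h against 24 h.

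Rescaling by TMM, equal totals or quantiles, edgeR, DESeq2 and removal of the GC trend kept the sign of the medians printed for writers, erasers, the HDAC and CHD genes and the H3K4, H3K9 and acetylation groups. The 1 member higher at 48 h became 0 with equal totals or no filter and 2 with a filter at 50, a pseudocount of 5 or robust moderation. Fitting only the groups compared gave 2 lower at 12 h, 6 higher and 2 lower at 48 h against 24 h, and 2 higher and 7 lower at 24 h against 12 h.

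The writers minus erasers difference of mean log2 changes was -0.101 at 48 h, -0.039 at 24 h and 0.138 at 12 h without KAT7, and 0.211 at 12 h as a difference of medians. At 24 h it was -0.048 with the GC trend removed, -0.036 also without E8 replicate 2, and between -0.115 and -0.048 without 1 of the 24 h libraries. Without 1 of these it lay between -0.1 and -0.033 at 48 h against 24 h and between -0.199 and -0.132 at 24 h against 12 h.

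Replicate numbers were not taken to pair the samples. The correlations of replicate differences were -0.035, -0.048 and -0.071, which alone cannot show whether the samples were paired. With the replicate block 2 members were higher at 48 h, and 1 higher and 3 lower at 12 h.

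Over all genes, removing the GC trend gave 1920 genes higher and 1467 lower at 48 h, against 830 and 1054, and 1406 and 1282 at 12 h, against 419 and 800. At 48 h against 24 h it gave 174 and 243, against 57 and 140, and at 24 h against 12 h 48 and 47, against 43 and 21 (edgeR 26 and 26).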

Other observations

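The genes beside KAT7 on chromosome 17, chosen after its values were seen, had their own values. SLC35B1 had 899 and 906 normalised reads at 24 h and 983 and 810 at 48 h, against 1035 and 966 in E8, a log2 difference of -0.16 at 48 h (limma adjusted p = 0.54). FAM117A, which overlaps the start of KAT7 on the other strand, had 892 and 929 at 48 h, against 696 and 773 in E8 (0.31, adjusted p = 0.2). TAC4 had 17.3 and 20.8 at 48 h, against 34.1 and 32.2 in E8 (-0.77, adjusted p = 0.3). AC027801.1 fell at 48 h to 14 and 22.8, against 56.8 and 34.7 in E8 (-1.26, adjusted p = 0.045).

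The antisense transcripts left out by name did not pass at any time. KMT2E-AS1 had 40.6 and 31.8 at 24 h, against 37.5 and 48.8 in E8 (log2 -0.25, adjusted p = 0.67), where KMT2E itself fell. HDAC2-AS2 had 817 and 1659 at 24 h, against 1400 and 1539 in E8 (-0.33, adjusted p = 0.32), and KDM4A-AS1 differed by 0.56 at 48 h (adjusted p = 0.37).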
